A study of Mus musculus with 40 samples.

Results

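The Cyp2a family is represented here by 4 mouse genes, Cyp2a4, Cyp2a5, Cyp2a12 and Cyp2a22, taken from the deposited table of normalized liver expression by gene symbol alone. They are 4 of the 17724 genes in that table, and all 4 were among the 13776 genes that passed the minimum mean signal of 10. RNA was sequenced from the liver of 40 C57BL/6NJ mice of about 2 months, in 8 groups of 5. A group was defined by genotype, diet and sex. The genotype was wild type (WT) or d3/d3 (written d3), a homozygous deletion of exon 3 of Ghr, the growth hormone receptor gene. After weaning at about 1 month, the mice were fed ad libitum (AL) or on 40% calorie restriction (CR) for a further month, although the extraction protocol in the labels states an age of 28 to 34 days at death. Per the labels, the cohort was derived by in vitro fertilisation of C57BL/6NJ oocytes with frozen sperm of d3/d3 males, and all mothers were fed ad libitum until weaning. The labels used here name no litter, batch, collection day or collection time.

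CYP2A enzymes are haem-containing mono-oxygenases of the hepatocyte endoplasmic reticulum that take electrons from the reductase Por and hydroxylate steroids, drugs and plant compounds. Cyp2a5 is the mouse coumarin hydroxylase, which also acts on nicotine and bilirubin and is known for its induction by xenobiotics, by fasting signals and by the nuclear receptor Nr1i3 (CAR). Cyp2a4 is a steroid hydroxylase known for higher expression in female liver, a pattern set by the sex-specific timing of growth hormone release. Cyp2a12 hydroxylates steroids and bile acids. No role is given here for Cyp2a22.

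All 4 genes lie within 730.2 kb of chromosome 7 (GRCm38, GENCODE M21), in a cluster that also holds Cyp2b19, Cyp2b23, Cyp2g1 and the pseudogene Cyp2a21-ps. Each is annotated with 9 exons. Cyp2a4 (ENSMUSG00000074254) occupies chr7:26307169-26315088 on the plus strand, Cyp2a5 (ENSMUSG00000005547) chr7:26835305-26843548 on the plus strand, Cyp2a22 (ENSMUSG00000091867) chr7:26931631-26939384 on the minus strand and Cyp2a12 (ENSMUSG00000060407) chr7:27029081-27037375 on the plus strand. The family falls into 2 pairs of near copies. The coding sequences of Cyp2a4 and Cyp2a5 were 98.4% identical, with 23 of 1482 bases different, and those of Cyp2a12 and Cyp2a22 were 97.0% identical, with 45 of 1476 different. Across the pairs the identity was 75.4% to 76.5%.

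The pairing extends upstream of the genes. The 250 bases before the RefSeq start of each gene are shown because the members of a pair shared most of this stretch and yet differed from each other in mean level in every group. Bases in capitals differ from the other member of the pair or face a gap inside the alignment. Bases at the ends that have no partner are in lower case.
Cyp2a4, plus strand, chr7:26306942-26307191: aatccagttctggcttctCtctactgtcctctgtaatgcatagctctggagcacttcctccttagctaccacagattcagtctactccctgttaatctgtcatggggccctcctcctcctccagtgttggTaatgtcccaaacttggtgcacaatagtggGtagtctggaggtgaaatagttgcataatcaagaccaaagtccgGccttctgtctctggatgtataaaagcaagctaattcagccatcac
Cyp2a5, plus strand, chr7:26835089-26835338: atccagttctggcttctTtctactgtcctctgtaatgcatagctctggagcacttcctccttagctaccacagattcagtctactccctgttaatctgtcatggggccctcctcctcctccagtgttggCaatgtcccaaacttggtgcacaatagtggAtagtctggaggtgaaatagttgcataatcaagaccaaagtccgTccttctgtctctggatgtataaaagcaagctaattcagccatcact
Cyp2a12, plus strand, chr7:27028840-27029089: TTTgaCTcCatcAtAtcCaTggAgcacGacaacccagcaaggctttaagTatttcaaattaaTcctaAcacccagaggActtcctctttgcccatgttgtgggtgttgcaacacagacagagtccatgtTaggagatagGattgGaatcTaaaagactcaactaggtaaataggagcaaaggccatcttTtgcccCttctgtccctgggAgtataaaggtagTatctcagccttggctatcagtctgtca
Cyp2a22, minus strand, chr7:26939387-26939636: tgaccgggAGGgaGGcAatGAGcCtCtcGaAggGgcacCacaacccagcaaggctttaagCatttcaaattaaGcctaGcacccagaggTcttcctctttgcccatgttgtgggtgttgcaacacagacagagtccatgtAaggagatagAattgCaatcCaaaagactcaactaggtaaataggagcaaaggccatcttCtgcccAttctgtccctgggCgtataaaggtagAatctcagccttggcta
The first pair differed at 4 of 249 aligned bases, and the second at 24 of 242 with 3 further gap positions. Between the pairs, Cyp2a5 and Cyp2a12 shared 62.9% of the aligned bases. On both strands, none of the 4 stretches held TTANGTAA (the D-box read by Dbp, Tef and Hlf), TTCNNNGAA (STAT5) or AGGTCA (a nuclear receptor motif), which occur in 2.06%, 7.02% and 14.02% of the 32851 mouse promoters in the same table. GTTAAT, part of the HNF1 motif present in 6.43% of them, was found once in Cyp2a4 and once in Cyp2a5 (position -160 and -161 from the start), and not in the other pair. These are exact matches of letters in a 250-base window, which miss variants of a motif, and they say nothing about binding.

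The likeness of the copies bears on every value below, because reads that lie in a shared stretch can be divided between members by the counting program. Of the 31-base windows of the coding sequence, 57.6% were shared between Cyp2a4 and Cyp2a5, and 45.2% between Cyp2a12 and Cyp2a22. Across the pairs there was at most 1 shared window. The 120 coding bases of the first pair with the most differences show how reads are told apart, with the 6 differing bases in capitals, counted from the first coding base.
Cyp2a4, coding bases 550 to 669: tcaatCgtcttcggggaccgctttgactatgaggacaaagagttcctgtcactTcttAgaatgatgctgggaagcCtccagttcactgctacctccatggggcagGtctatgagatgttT
Cyp2a5, coding bases 550 to 669: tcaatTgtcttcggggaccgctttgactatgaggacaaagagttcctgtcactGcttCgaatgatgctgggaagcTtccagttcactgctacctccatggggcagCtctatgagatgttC
The split of signal within a pair is therefore uncertain, most of all where one copy is far below the other, and the summed signal of each pair is given beside it.

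The libraries held 21132490 to 44195300 reads that fell on genes. Hepatocyte markers were high in every library, at a summed signal of 1783740 to 4795280 over 7 of 8 listed genes. Skeletal muscle markers (15 of 16 measured) ranged from a summed signal of 26.3 to 2246940, and 17 of the 40 libraries had a mean log2 muscle signal of at least 8 and are called muscle-rich here. There were 1 to 3 muscle-rich libraries in each group. Exocrine pancreas markers (8 of 10 measured) ranged from 18.3 to 55584. In whole liver, fewer cells of a type and less RNA per cell cannot be told apart. The gene-level signal of Ghr does not check the exon deletion, and its mean was 11633 to 17084 in the 8 groups with no genotype change called.

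**Figure D1:**
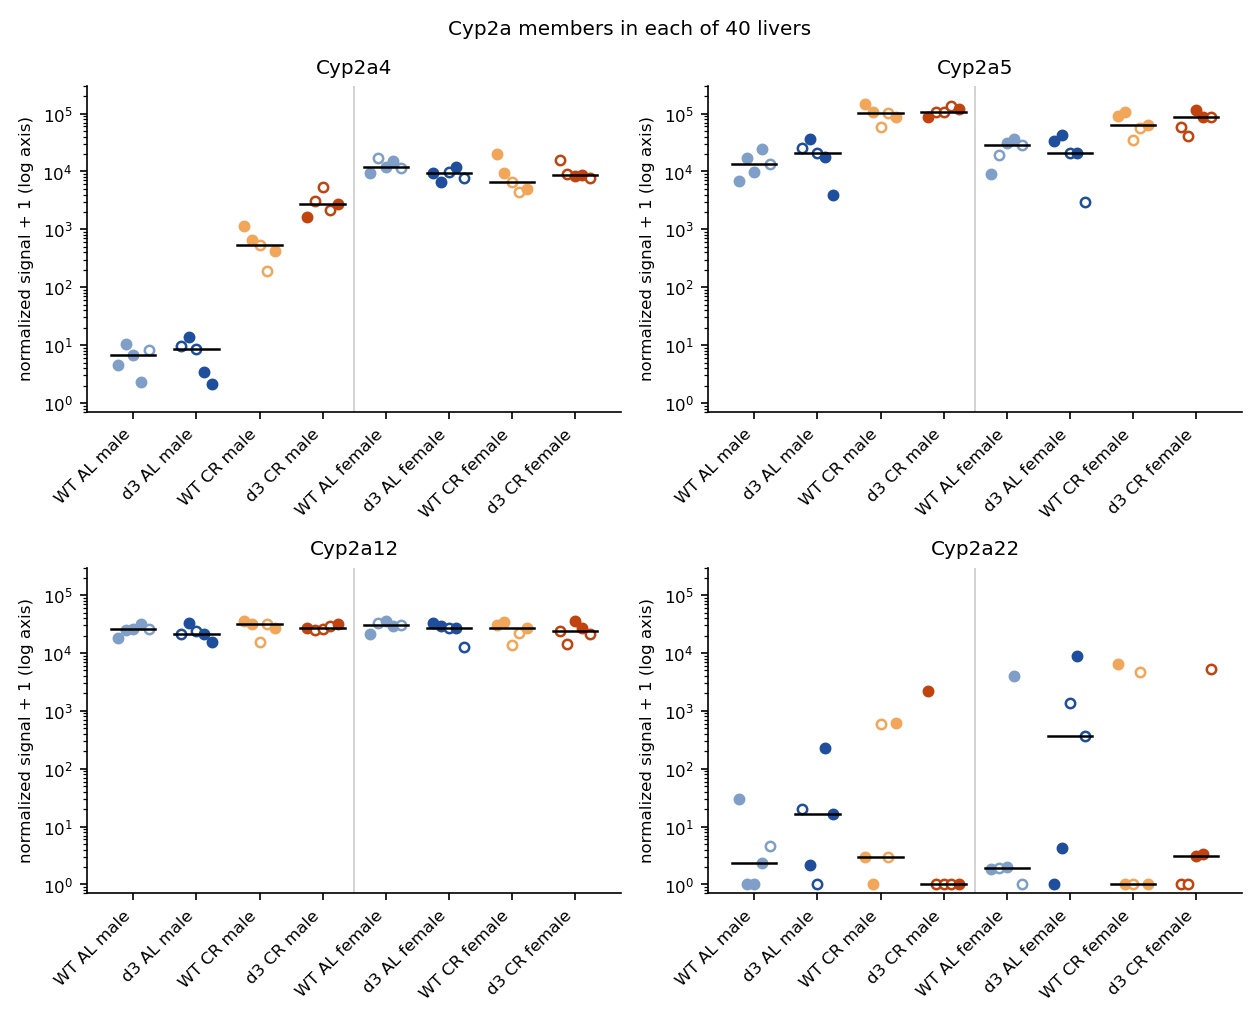
Normalized signal plus 1 of the 4 members in each liver, on a log axis, for the 8 groups of 5. Filled points are libraries below the muscle threshold, open points are muscle-rich libraries, and the black line is the group median. Within the same genotype and diet, Cyp2a4 did not overlap between the sexes. It also did not overlap between diets in males of either genotype or between genotypes in CR males. Cyp2a5 did not overlap between diets in males and overlapped in females, Cyp2a12 overlapped in all 12 comparisons, and Cyp2a22 was at 0 or under 30 in 29 livers and between 226 and 8993 in 11. The share of all genes without overlap was not computed.

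The members differed in which comparisons they passed. Genotype, diet and sex each gave 4 comparisons of 2 groups, 12 in all. Cyp2a4 passed the test in 7 of the 12 (3 higher, 4 lower), and in all 7 the livers of the 2 groups did not overlap. Cyp2a5 passed in 4, all higher under CR, and did not overlap in 2. Over all genes tested, 0% to 21.5% were called in the 12 comparisons, and 11.7% to 21.5% in the 4 of diet. The share of all genes without overlap was not computed, so the counts of non-overlap are descriptions only. Cyp2a12 and Cyp2a22 passed in 0 of 12 by limma, by edgeR and at an unadjusted p under 0.05. The test was limma on log2(normalized signal + 1), with Benjamini-Hochberg adjustment over all genes tested and a threshold of 0.05, and a change is a log2 difference on that scale with its standard error (SE).

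Cyp2a4, the steroid hydroxylase, was near absent in males fed freely and abundant in females. In WT AL males the normalized signal was 3.52, 9.59, 5.64, 1.31 and 7.07. In WT AL females it was 9252, 16923, 11849, 15162 and 11427. Every female exceeded every male by far more than the spread within either sex. The male livers rested on 1 to 8 assigned reads each. These counts were recovered from the normalized signal, and their split from Cyp2a5 is uncertain. The log2 difference, male minus female, was -11.12 ± 0.45 (limma adjusted p = 3.89e-20), and the background rate of genes called in this comparison was 6.48%.

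The same order held in d3 AL mice. Males had 8.46, 12.96, 7.57, 2.46 and 1.10, and females had 9490, 6656, 9798, 12152 and 7799. The groups did not overlap, and the difference was -10.53 ± 0.45 (limma adjusted p = 2.33e-19), where 6.16% of all genes were called. Neither AL comparison of genotypes was called for Cyp2a4, with changes of 0.09 ± 0.45 in males and -0.49 ± 0.45 in females (limma adjusted p = 0.976 and 0.850). In these 2 comparisons 0.0436% and 0% of genes were called. In AL females the 0 genes called by limma compare with 0 by edgeR and 875 at an unadjusted p under 0.05.

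Calorie restriction raised Cyp2a4 in males of both genotypes. In WT CR males the signal was 1130, 656, 527, 187 and 418, and the lowest of these lay far above the highest WT AL male (9.59). The change was 6.46 ± 0.45 on the log2 scale (limma adjusted p = 5.81e-13), an 87.8-fold increase that the pseudocount of 1 understates. In d3 CR males the signal was 1621, 3146, 5387, 2159 and 2733, all above every d3 AL male, and the change was 8.83 ± 0.45 (limma adjusted p = 2.91e-16). Genes called for diet made up 21.5% of all genes in WT males and 19.5% in d3 males.

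Females showed no such rise. WT CR females had 20123, 9307, 6575, 4437 and 4918, which overlapped the AL females, and the change was -0.72 ± 0.45 (limma adjusted p = 0.330). In d3 CR females the signal was 15632, 9046, 8375, 8622 and 7857, which overlapped the AL group with 1 liver (15632) above its highest value (12152), and gave a change of 0.09 ± 0.45 (limma adjusted p = 0.925). The background rates for diet were 11.7% in WT females and 17.9% in d3 females. The diet change in males exceeded that in females by 7.17 ± 0.64 in WT and by 8.74 ± 0.64 in d3 mice (limma adjusted p = 5.62e-09 and 1.91e-11), and these interactions were called for 0.348% and 2.09% of all genes.

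On CR the sex difference of Cyp2a4 was -3.95 ± 0.45 in WT mice (limma adjusted p = 1.37e-07) and -1.79 ± 0.45 in d3 mice (limma adjusted p = 0.0123), with background rates of 4.57% and 8.81%. In both genotypes the highest CR male stayed below the lowest CR female. The d3 call did not hold without the 17 muscle-rich libraries, which left 2 livers in each d3 CR group and gave -2.01 (limma adjusted p = 0.110).

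Within CR males, Cyp2a4 was higher in d3 than in WT livers. The mean was 3009 ± 1449 (SD, n = 5) against 584 ± 351 (SD, n = 5), the lowest d3 liver (1621) lay above the highest WT liver (1130), and the change was 2.47 ± 0.45 (limma adjusted p = 0.00703). Cyp2a4 was the one member called for genotype, where 0.138% of all genes passed. The authors' deposited table gives a log2 fold change of 2.26 with an adjusted p of 7.61e-05 for the same comparison, and it calls no member in the other 3 genotype comparisons. The call was lost when the 2 groups were fitted alone (limma adjusted p = 0.198), without WT CR male replicate 4 (2.12, limma adjusted p = 0.0621) and without the muscle-rich libraries (1.63, limma adjusted p = 0.458).

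Skeletal muscle markers had a summed signal of 50.1 to 464451 in WT CR males and 27.0 to 240795 in d3 CR males, with 2 and 3 muscle-rich libraries. In the livers below the muscle threshold, Cyp2a4 was 1621 and 2733 in d3 and 1130, 656 and 418 in WT. The full groups did not overlap, so no part of them could, and these values do not test the part of muscle. With the muscle signal as a covariate the change was 2.47 (limma adjusted p = 0.00714).

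After adjustment over all genes, the genotype effect on Cyp2a4 was not shown to depend on diet or sex. The change in CR males exceeded that in AL males by 2.38 ± 0.64 (limma unadjusted p = 0.000722, limma adjusted p = 0.511). It exceeded that in CR females by 2.16 ± 0.64 (limma unadjusted p = 0.00189, limma adjusted p = 0.204). In AL males Cyp2a4 rested on 1 to 11 assigned reads per liver, so a genotype change there could hardly be measured. In CR females the genotype change itself was 0.32 ± 0.45 (limma adjusted p = 0.937), a comparison in which 0% of genes were called by limma (0 by edgeR, 1027 at an unadjusted p under 0.05). The interactions of genotype with diet were called for 0.0218% of genes in males and 0% in females, and those of genotype with sex for 0% on AL and 0.0145% on CR. Where limma called 0, edgeR also called 0, and 1527 and 1056 genes had an unadjusted p under 0.05.

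**Figure D2:**
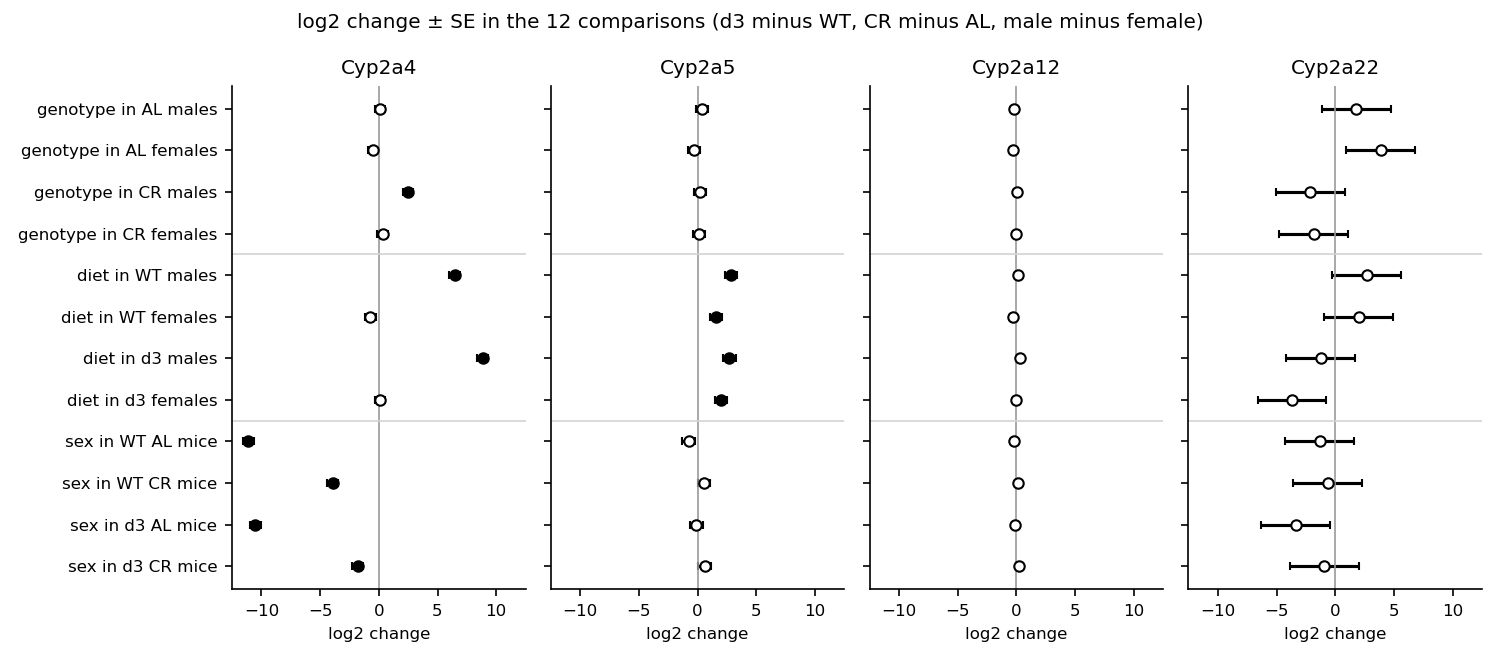
Log2 change with its standard error for each member in the 12 comparisons, on 1 shared axis. Filled points passed the threshold and open points did not. Cyp2a4 spans -11.12 to 8.83, Cyp2a5 passed in the 4 diet comparisons, Cyp2a12 stayed within -0.29 and 0.32, and the standard error of Cyp2a22 was 2.94 throughout.

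Cyp2a5, the coumarin hydroxylase, rose with restriction in all 4 combinations of sex and genotype. In WT males the signal was 6880, 17405, 9933, 24239 and 13404 on AL and 144376, 105729, 59039, 101995 and 86895 on CR. In d3 males it was 24967, 36292, 20476, 17913 and 3984 on AL and 85922, 107265, 105603, 136487 and 119869 on CR. Every restricted male exceeded every freely fed male of its genotype. The changes were 2.87 ± 0.52 in WT and 2.71 ± 0.52 in d3 males (limma adjusted p = 0.000116 and 0.000245), which correspond to 7.30-fold and 6.55-fold.

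In females the rise also passed, with some overlap between the diets. WT females had 8908, 19528, 30684, 35902 and 29053 on AL and 91744, 108294, 35412, 57202 and 63144 on CR. In d3 females the signal was 33615, 43355, 20921, 20994 and 2995 on AL and 58299, 40838, 114014, 88178 and 87000 on CR. In each genotype a single CR female (35412 in WT, 40838 in d3) fell below the highest AL female, and both were muscle-rich libraries. The changes were 1.57 ± 0.52 in WT and 2.02 ± 0.52 in d3 females (limma adjusted p = 0.0455 and 0.00608).

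The WT female call was lost in 8 of the 10 fits that left out 1 liver of the 2 groups, with changes of 1.24 to 1.79 over the 10. Leaving out the muscle-rich libraries gave 2.00 in WT (limma adjusted p = 0.0839) and 1.68 in d3 females (limma adjusted p = 0.152). The d3 call was also lost when its 2 groups were fitted alone (limma adjusted p = 0.0769). The diet change of Cyp2a5 in males was not shown to differ from that in females, at 1.30 ± 0.74 in WT and 0.69 ± 0.74 in d3 mice (limma adjusted p = 0.523 and 0.698).

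Cyp2a5 did not pass the test for sex or genotype in any comparison. The sex differences, male minus female, were -0.77 and -0.11 on AL and 0.53 and 0.59 on CR in WT and d3 mice, each ± 0.52. Its genotype changes lay between -0.31 and 0.36. By group mean the order ran from d3 CR males (111029), WT CR males (99607), d3 CR females (77666) and WT CR females (71159) down to WT AL females (24815), d3 AL females (24376), d3 AL males (20726) and WT AL males (14372), and each neighbour in this order overlapped the next.

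The summed signal of Cyp2a4 and Cyp2a5 does not depend on how shared reads were split. Its mean was 14378 in WT AL males and 100190 in WT CR males, 20733 and 114038 in d3 males, 37738 and 80231 in WT females, and 33555 and 87572 in d3 females. Cyp2a5 made up most of the sum in every group, so the sum followed diet as Cyp2a5 did.

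The share of Cyp2a4 in that sum was as follows. It averaged 36.6% ± 11.1 (SD, n = 5) in WT and 35.2% ± 22.6 in d3 AL females, and 11.2% ± 5.21 and 12.7% ± 6.50 in the CR females. In CR males it was 0.588% ± 0.274 in WT and 2.67% ± 1.31 in d3 livers. In AL males it was 0.0442% ± 0.0218 and 0.0296% ± 0.00955. The male and female values did not overlap in any diet or genotype. In d3 AL females 1 liver had 72.3%, and it was the liver with the lowest Cyp2a5 of that group (2995).

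**Figure D3:**
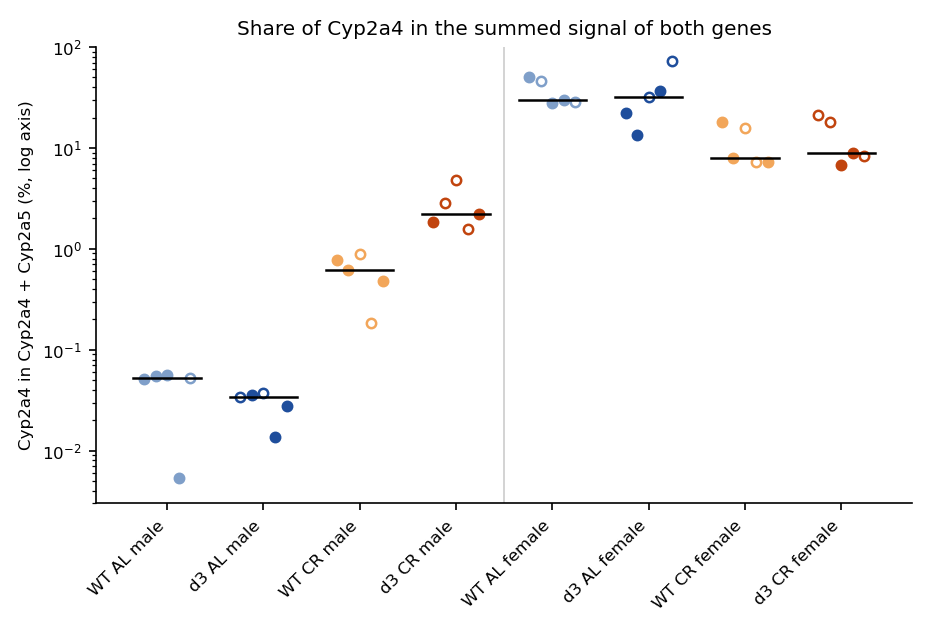
Cyp2a4 as a percentage of the summed signal of Cyp2a4 and Cyp2a5 in each liver, on a log axis, for the 8 groups of 5. Filled and open points are libraries below and above the muscle threshold and the black line is the group median. The highest male is at 4.85% and the lowest female at 6.84%.

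Exact permutation tests of the log2 ratio of Cyp2a4 to Cyp2a5 within each liver were run next. With 5 livers against 5 there are 252 splits, the smallest p they allow is 0.00794, and adjustment over the 36 ratio tests takes it to 0.0220. The ratio reached that value in 8 of 12 comparisons, the 4 of sex, the diet comparison in WT males (3.59 higher on CR), in d3 males (6.12 higher) and in WT females (2.28 lower), and genotype in CR males (2.27 higher in d3). In d3 females the ratio was 1.93 lower on CR (exact permutation adjusted p = 0.0816), with overlap between the groups. The ratio therefore moved up with restriction in males and down in WT females, where Cyp2a5 rose and Cyp2a4 did not.

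**Figure D4:**
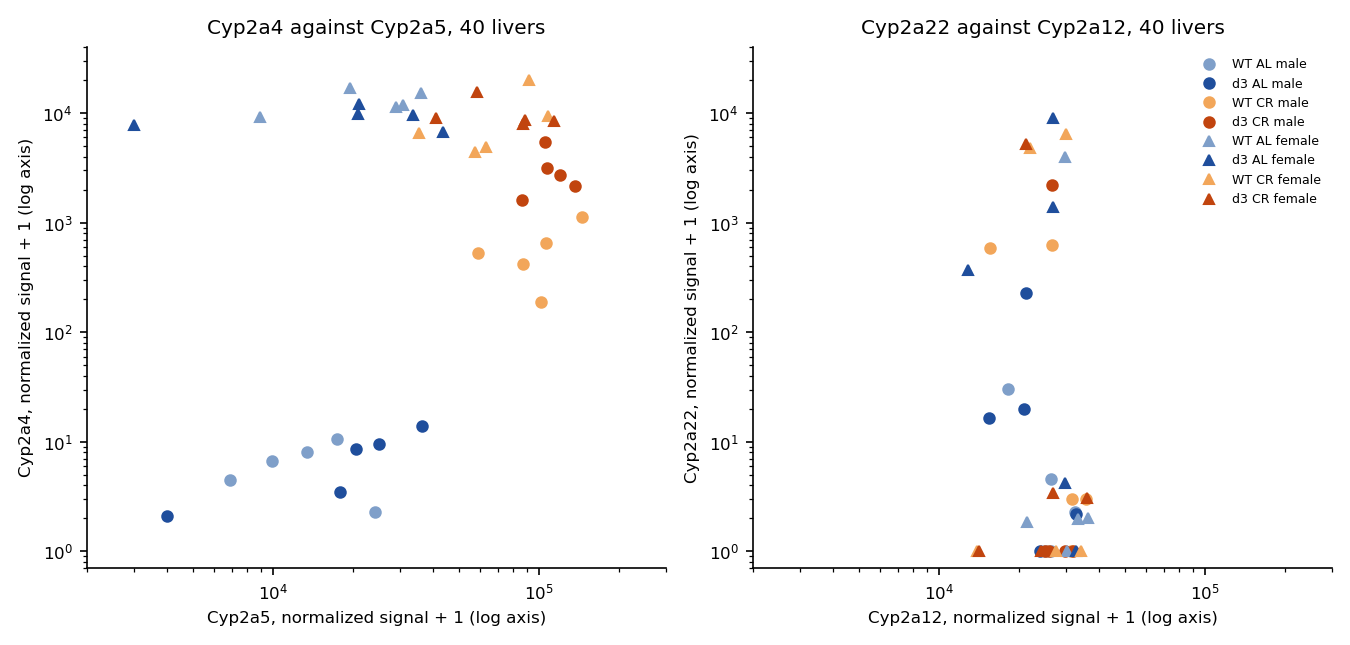
Each liver as a point, with Cyp2a4 against Cyp2a5 on the left and Cyp2a22 against Cyp2a12 on the right, as normalized signal plus 1 on log axes. Circles are males and triangles females, blue is AL and orange to red is CR, the darker shade being d3. Females lie in a band of Cyp2a4 between 4437 and 20123 at any Cyp2a5, and Cyp2a22 spans 0 to 8993 while Cyp2a12 stays between 12857 and 36365.

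Cyp2a12, which hydroxylates steroids and bile acids, passed no comparison. Its group means ran from 22858 ± 6344 in d3 AL males to 30175 ± 5602 in WT AL females (SD, n = 5), and each group overlapped every neighbour in the order. Single livers ranged from 12857 to 36365. In the 12 comparisons its change was between -0.29 and 0.32, with an SE of 0.25, and the lowest limma adjusted p was 0.404. Differences of about the size of that SE, and larger ones, could have been missed here. For scale, the diet change of Cyp2a5 in WT females, 1.57 ± 0.52, only just passed (limma adjusted p = 0.0455). The absence of calls does not show that Cyp2a12 was constant.

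Cyp2a5 was also set against Cyp2a12 in the same liver. The log2 ratio of Cyp2a5 to Cyp2a12 was higher on CR by 2.76 in WT males, 2.39 in d3 males, 1.86 in WT females and 2.09 in d3 females, with no overlap between AL and CR livers in any of the 4 (exact permutation adjusted p = 0.0220 each). The ratio was also 0.37 higher in males than in females among WT CR mice (exact permutation adjusted p = 0.0220), a call lost without WT CR male replicates 1, 2 or 3 in turn (exact permutation adjusted p = 0.0659 to 0.0816). Across the 40 livers, after removing group means, log2 Cyp2a5 and log2 Cyp2a12 had a Pearson correlation of 0.84. This is a description over livers that share muscle content and library effects.

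Cyp2a22, the near copy of Cyp2a12, fell into low and high livers within groups. It was listed at 0 in 15 livers, had 1 to 30 assigned reads in 14 and at least 100 in 11. The highest of the low livers had a normalized signal of 29.3 and the lowest of the high ones 226, with nothing between. Of the 11 high livers 7 were female and 4 male, of 20 in each sex. They came from every group except WT AL males.

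The high values were spread over genotype and diet. In females they were 3930 in WT AL, 1383, 8993 and 368 in d3 AL, 6411 and 4762 in WT CR, and 5213 in d3 CR. In males they were 226 in d3 AL, 584 and 620 in WT CR, and 2221 in d3 CR. None of the 12 comparisons was called, with changes of -3.68 to 3.87 and an SE of 2.94 (lowest limma adjusted p = 0.429). The authors' deposited table lists no adjusted p for Cyp2a22 in any of its 4 comparisons. Muscle-rich libraries made up 5 of the 11 high livers and 12 of the other 29.

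Where Cyp2a22 was high it took up to 25.2% of the summed signal of Cyp2a12 and Cyp2a22, in d3 AL female replicate 4. The summed signal stayed between 22910 and 30962 by group mean. The ratio of Cyp2a12 to Cyp2a22 did not pass in any of the 12 exact permutation tests (lowest adjusted p = 0.519).

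Per kilobase of coding sequence the order of the members changed with diet. On AL the highest mean was that of Cyp2a12 in all 4 groups, from 15486 in d3 males to 20444 in WT females, ahead of Cyp2a5, from 9698 in WT males to 16744 in WT females. On CR the highest was Cyp2a5, from 48016 in WT females to 74918 in d3 males, with Cyp2a12 at 16572 to 19090. Cyp2a4 ranked next in all groups except AL males, where it was last at 3.66 in WT and 4.39 in d3. The order was the same per kilobase of transcript.

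**Figure D5:**
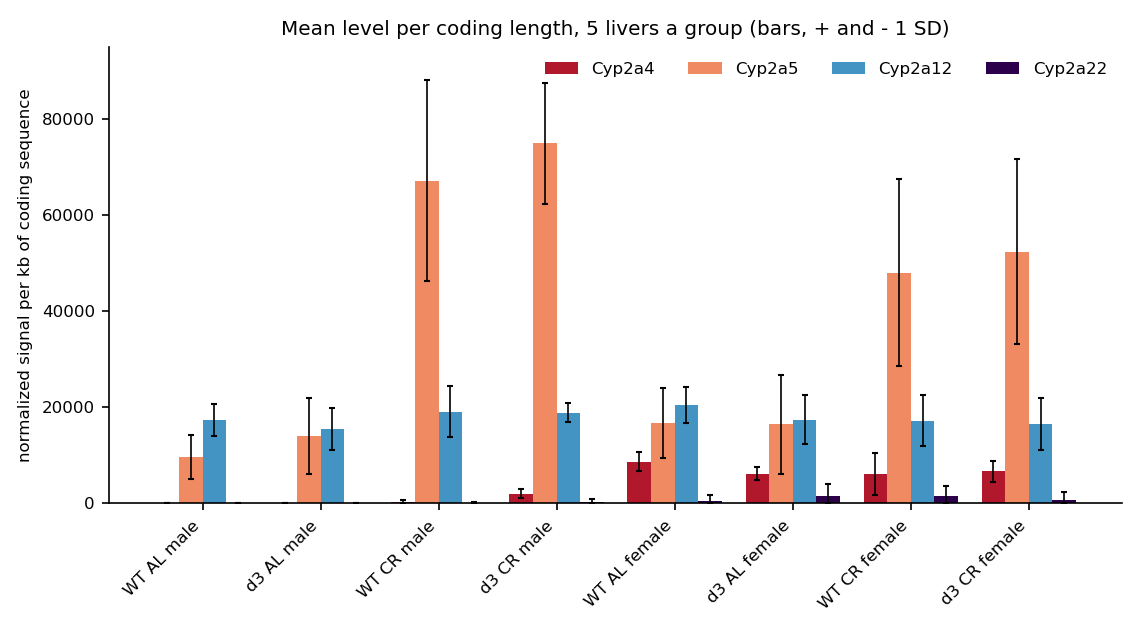
Mean normalized signal per kilobase of coding sequence for the 4 members in the 8 groups, with 1 SD over 5 livers, the lower bar ending at 0 where the SD exceeds the mean. Cyp2a5 is the tallest bar in the 4 CR groups and Cyp2a12 in the 4 AL groups, and Cyp2a4 is visible in females and in d3 CR males.

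Each member had a different set of genes closest to it in pattern, by Pearson correlation of log2(signal + 1) over the 40 livers. The genes ranked were those tested, without the members and without predicted genes. For Cyp2a4 these were Cyp2b13 (0.97), a P450 gene near the same cluster, and Slc22a27 (0.95), a transporter. For Cyp2a5 they were Gstm3 (0.93), a glutathione transferase, Dgat2 (0.93), which makes triglyceride, and Inmt (0.93), a methyltransferase. For Cyp2a12 they were Cers2 (0.87), a ceramide synthase, Shmt2 (0.85) and Scly (0.84), and for Cyp2a22 no ranked gene exceeded Elf3 (0.54).

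With group means removed, the correlations of Cyp2a5 with Gstm3, Dgat2 and Inmt remained 0.87, 0.79 and 0.79, and that of Cyp2a12 with Cers2 was 0.89. Those of Cyp2a4 with Cyp2b13 and Slc22a27 were 0.39 and 0.07, so for Cyp2a4 the likeness was mostly one of group means. These are descriptions over 40 livers that share library effects. Cyp2a4 and Cyp2a5 themselves correlated at 0.43 over the 40 livers and 0.33 within groups.

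For the gene lists that follow, the background of diet calls over all genes was 10.1% higher and 11.4% lower for WT males and 9.001% higher with 10.5% lower for d3 males. For females it was 4.56% higher and 7.11% lower (WT) and 8.33% higher and 9.55% lower (d3). A list whose share is near these values shows nothing of its own.

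Other genes near the cluster were compared with Cyp2a4 for diet. Among WT males 4 of the 9 neighbours tested were higher on CR and 1 was lower, and among d3 males 3 were higher. Females of each genotype had 0 higher and 1 of 9 lower, near the background. The list medians in males were 0.30 (WT) and 0.19 (d3), beside 0.04 and 0.03 over all genes, and in females 0.03 (WT) and 0.19 (d3), beside 0.02 for either genotype. Cyp2b9 went from a mean of 17.7 to 7277 in WT males (10.17 ± 0.81, limma adjusted p = 1.37e-11). Cyp2b10, the classical target of Nr1i3, fell in WT females (-3.49 ± 0.51, limma adjusted p = 1.04e-05) and in d3 females (-2.68 ± 0.51, limma adjusted p = 0.000312). In males Cyp2b10 had -0.05 ± 0.51 in WT and 0.19 ± 0.51 in d3 and was not called (limma adjusted p = 0.958 and 0.824). The part of Nr1i3 in the Cyp2a5 changes was not tested. Cyp2g1 rose in WT males (3.40 ± 0.79, limma adjusted p = 0.00174).

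Cyp2a4 was set beside other female-biased liver genes. Of 14 tested, 13 were lower in males on AL in WT mice and 10 on CR, with list medians of -10.36 and -4.44 beside all-gene medians of -0.01 and -0.01. In d3 mice 12 were lower in males on AL, and on CR 7 were lower and 1 higher (list medians -7.65 and -2.54). The background of genes lower in males was 3.06% and 2.01% in WT and 2.71% and 3.62% in d3 mice, on AL and CR. With diet, 7 rose in WT males and 8 in d3 males with 0 falling. WT females had 1 higher and 4 lower on CR, and d3 females 2 higher and 1 lower. The diet medians for males were 1.73 (WT) and 2.15 (d3), and for females 0.16 (WT) and 0.10 (d3). In CR males 2 were higher in d3, Cyp2b13 (4.44 ± 0.62, limma adjusted p = 0.000339) and Sult3a1 (3.55 ± 0.64, limma adjusted p = 0.00571), beside Cyp2a4. The list was chosen with earlier results of these data known. It shares Cyp2b9 and Cyp2b13 with the neighbours above and Cux2 with the growth hormone and liver sex regulators below. The counts of these lists are therefore not independent.

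Nuclear receptor and P450 support genes were set beside Cyp2a5. Of 15 tested, 3 rose with diet in WT males and 4 in d3 males, 0 fell, and 0 were called in the females of either genotype by limma. Over all genes, 10.1% were called higher on CR in WT males and 9.001% in d3 males. The share of this list that rose was above these values, but it rested on 3 and 4 genes and the excess was not tested. The list medians in males were 0.15 (WT) and 0.34 (d3), beside 0.04 and 0.03 over all genes. Alas1, the first enzyme of haem synthesis, rose in WT males (1.95 ± 0.47, limma adjusted p = 0.00259) and in d3 males (1.33 ± 0.47, limma adjusted p = 0.0435). Nr1i3 had a change of 0.49 ± 0.18 in WT males (limma adjusted p = 0.0503) and Por 0.72 ± 0.28 (limma adjusted p = 0.0636), neither of which passed.

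Clock and PAR bZIP genes, whose products include the D-box factors that are known to drive daily rhythms of Cyp2a4 and Cyp2a5, changed with diet in the same livers. Of 12 tested, CR males had 8 higher and 4 lower in the WT comparison and 6 higher and 3 lower in the d3 comparison. The counts for females were 7 higher with 4 lower (WT) and 6 higher with 4 lower (d3). The list medians were 1.52 and 0.63 in the male comparisons and 1.77 and 1.01 in the female ones, WT first. Dbp went from a mean of 122 to 7439 in WT males and from 49.2 to 6428 in WT females, and Arntl fell in both (-5.86 ± 0.36 and -3.92 ± 0.36, limma adjusted p = 8.21e-15 and 6.57e-10). The part of these shifts in the Cyp2a5 and Cyp2a4 changes was not tested.

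Among steroid hydroxylases and dehydrogenases, the functional neighbours of Cyp2a4, calls with diet in males went in both directions. Of 9 tested, WT males had 1 higher and 3 lower on CR, and d3 males had 1 higher and 5 lower. WT females had 0 higher and 2 lower, and d3 females 0 higher and 1 lower. The list medians in males were -0.50 (WT) and -0.67 (d3), and in females -0.73 (WT) and -0.28 (d3). Cyp7b1, a male-biased oxysterol and steroid hydroxylase, fell (-2.62 ± 0.31 in WT and -3.23 ± 0.31 in d3 males, limma adjusted p = 6.6e-08 and 6.14e-10) where Cyp2a4 rose, and Hsd17b6 rose (2.41 ± 0.40 and 2.55 ± 0.40, limma adjusted p = 3.24e-05 and 1.38e-05). Of 17 growth hormone and liver sex regulators tested, 1 was higher and 2 were lower on CR in WT males, and 3 were higher in d3 males. WT females had 1 higher and 1 lower, and d3 females 1 higher and 2 lower. Tox rose in males of both genotypes (1.24 ± 0.19 in WT and 1.35 ± 0.19 in d3, limma adjusted p = 7.64e-06 and 1.74e-06), Trim24 rose in d3 males (0.97 ± 0.19, limma adjusted p = 0.000366), and Stat5a and Hnf4a fell in WT males (-0.66 ± 0.18 and -0.53 ± 0.19, limma adjusted p = 0.00845 and 0.0458). Cux2, a female-biased factor, rose in d3 males (2.16 ± 0.45, limma adjusted p = 0.00058) and in both female groups, and had 0.73 ± 0.45 in WT males (limma adjusted p = 0.262).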

How the data were processed

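Liver RNA of 40 mice was sequenced by GENEWIZ with the KAPA Hyperprep kit, per the labels. Per the submitters' processing notes, FastQC, MultiQC, Trimmomatic, kallisto and DESeq2 were used with GRCm38. The sources used here name no version of these tools. Each value of the deposited table is a normalized signal per gene, made by the authors. In all 40 libraries these values were whole multiples of what 1 read is worth (100% within a tolerance of 0.01). The authors' log2 fold changes and their adjusted p-values for d3 against WT were copied as deposited.

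Of 17839 rows, 115 repeats of a symbol with the same values were dropped, which left 17724 genes, and 13776 with a mean signal of at least 10 were tested. The main test was limma 3.58.1 (R 4.3.3) on log2(signal + 1), with all 8 groups in 1 fit, a trended variance, 12 comparisons of 2 groups, 6 interactions and Benjamini-Hochberg adjustment over all genes tested. edgeR 4.0.16 on the recovered reads was an alternative. Ratios of 2 members within a liver were compared by 2-sided exact permutation tests, adjusted over 36. The scripts were tested on simulated data. Promoters came from RefSeq (GRCm38.p6) and coding sequences from GENCODE M21, read with Biopython 1.88. Alternatives were a pseudocount of 10, no filter, extra scaling, the compared groups alone, library weights, a muscle covariate, no muscle-rich libraries, and each library left out.

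The members and lists were chosen with earlier results of these data known. Named genes are the 4 members, the 3 ranked genes most correlated with each and a fixed set of regulators. From each list they include up to 4 called genes with the largest change and up to 2 not called. A gene that this rule names is not reported here. Replicate numbers follow sample order and pair nothing. The labels do not say more of how the mice of a group are related, so p-values measure the spread between these animals only.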

Additional observations from a re-analysis of the deposited data

Results flagged for a closer look

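The diet change of Cyp2a4 differed between the sexes. Males exceeded females by 7.17 on the log2 scale in WT and by 8.74 in d3 mice (limma adjusted p = 5.62e-09 and 1.91e-11).

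Single livers stood apart from the other 4 of their group in 7 of the 32 groups of member values examined. The chance rate of this rule, about 1 in 20 groups, assumes normally distributed values. Cyp2a22 fell into low and high livers, so the count was not set against that rate. For Cyp2a4 it was d3 CR female replicate 1, with a normalized signal of 15631.5. For Cyp2a22 the males apart were replicate 1 of WT AL (29.3), replicate 4 of d3 AL (226) and replicate 1 of d3 CR (2221), and the females were replicate 4 of WT AL (3930), replicate 4 of d3 AL (8993) and replicate 5 of d3 CR (5213).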

How the results depend on the processing

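No paired analysis was possible because the labels give no replicate numbers. The called changes of the members kept their direction in all 104 values under other settings and all 150 without 1 library. Of the changes not called, 41 of 472 under other settings and 61 of 810 without 1 library differed in sign, none of them called. Calls were lost as follows, and the cause was not tested. With the groups compared alone, Cyp2a4 for genotype in CR males was 2.47 and Cyp2a5 for diet in d3 females 2.02. With no filter, Cyp2a5 for diet in WT females was 1.57. Without muscle-rich libraries these were 1.63, 1.68 and 2.00, and Cyp2a4 for sex in d3 CR mice was -2.01. Leaving out 1 library gave 2.12 to 2.77 for the first and 1.24 to 1.79 for Cyp2a5 in WT females.

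Without muscle-rich libraries none of the 36 ratio tests could pass, since the smallest p was 0.0286 to 0.333 and the lowest adjusted p 0.3, so this says nothing about stability. For Cyp2a4 to Cyp2a5 the differences were then 1.75 (genotype, CR males), 3.95, -2.28 and 5.93 (diet in WT males, WT females and d3 males), and -10.44, -4.20, -9.75 and -2.03 (sex in WT AL, WT CR, d3 AL and d3 CR). For Cyp2a5 to Cyp2a12 they were 2.76, 1.91, 2.48 and 1.61 (diet in WT males, WT females, d3 males and d3 females) and 0.33 (sex, WT CR). Leaving out 1 library gave 0.31 to 0.43 for the last, and for Cyp2a4 to Cyp2a5 -0.81 to -0.035 (genotype, AL males) and -2.35 to -1.33 (diet, d3 females), each passing once.

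The number of genes called moved by over 1.5 times as follows, given as a percentage of the genes tested. With groups alone it was 0% and 0.0363% (genotype, AL and CR males), 7.10% and 8.11% (diet, WT and d3 females), 3.30%, 2.77% and 0.726% (sex in WT AL, WT CR and d3 CR), and 0.00726% and 0% (genotype by diet in males, by sex on CR). With no filter more genes were tested, and the number called moved by less, while the percentage was 0.0282% and 0.0846% (genotype, AL and CR males). By edgeR it was 0.109% (genotype, AL males) and 0.00726% (genotype by diet, males). With library weights it was 4.73% (genotype, CR males), 19.4% and 29.8% (diet, WT females and d3 males), 11.0%, 12.8%, 13.9% and 15.2% (sex in WT AL, WT CR, d3 AL and d3 CR), 0.0145%, 0.0363% and 2.71% (genotype by diet in females, by sex on AL and on CR), and 2.39% and 5.03% (diet by sex, WT and d3). With the muscle covariate it was 0.00726% (genotype by sex, CR), 0.719% and 3.54% (diet by sex, WT and d3). Without muscle-rich libraries it was 0% (genotype, AL and CR males), 4.04%, 8.18% and 7.56% (diet, WT females, d3 males and d3 females), 0.784% (sex, WT CR), 0% and 0.00726% (genotype by diet in males, by sex on CR), and 0.167% and 0.624% (diet by sex, WT and d3). Leaving out 1 library gave 0.00726% to 0.0798% and 0.0581% to 0.203% (genotype, AL and CR males), 2.36% to 6.42% and 3.59% to 10.9% (sex, WT CR and d3 CR), 0% to 0.0363%, 0% to 0.00726% and 0% to 0.109% (genotype by diet in males, by sex on AL and on CR) and 0.269% to 0.769% (diet by sex, WT). For Cyp2a4 in AL males, 1 to 11 assigned reads per liver limit the precision.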
